A study of Homo sapiens with 6 samples.

Results

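The presynaptic vesicle and release machinery is the set of proteins that fills the nerve terminal with neurotransmitter vesicles, docks them at the active zone, fuses them with the plasma membrane when calcium enters, and takes the membrane back. Fusion is driven by SNARE proteins (a vesicle-borne VAMP, with syntaxin and SNAP-25 on the plasma membrane), timed by calcium-sensing synaptotagmins and by complexins, and organised by the large active zone scaffolds RIM, ERC, Bassoon and Piccolo. These transcripts accumulate in developing cortex as neurons mature, and loss of synapses is a feature of Alzheimer disease, in which amyloid-β peptides gather in the brain. Here 48 genes of this machinery were selected by symbol from a table of 18056 genes. All 48 were listed, and 46 had enough counts to be among the 13842 genes tested. SV2C and SNCG had not.

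The tissue was human forebrain organoids, cell aggregates that self-organise into dorsal forebrain-like tissue, grown from DYR0100, an induced pluripotent stem cell line of wild-type genotype. Vehicle was given to 3 of the libraries' organoids and 5 µM Aβ42, the aggregation-prone amyloid-β peptide, to the other 3, for 6 days and in 1 labelled batch. The series calls them independent biological replicates, but all come from that single line, and neither organoid age nor the number pooled is given in the sources used here. The comparison asks which transcripts differ after exposure to the peptide. Libraries held 16465390 to 16742958 estimated counts, and the 48 genes together took 0.437% to 0.482% of all TPM (transcript abundance scaled for gene length and library total).

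The tissue label was set against defining markers. The neuronal markers TUBB3, MAP2 and DCX ranged over 482.0 to 717.0 TPM in the 6 libraries, the excitatory marker SLC17A7 over 98.8 to 122.0 TPM and the radial glia marker SOX2 over 126.6 to 153.7 TPM. The inhibitory markers GAD1 (1.59 to 3.88 TPM) and GAD2 (0.18 to 0.98 TPM) were low. The full list of 12 inhibitory markers nevertheless summed to 529.3 to 616.4 TPM in vehicle and 460.0 to 590.5 TPM under Aβ42. TTR, a choroid plexus marker, ran from 2805 to 7487 TPM and was highest in the libraries numbered 2 of both groups. Of 10 microglia markers, 5 had no count in any library, C1QA and TYROBP among them. Where a library has 0 counts, there is room for 3 counts, or at most 0.182 CPM (counts scaled to the library total). Others of the list were detected, and it summed to 4.71 to 5.55 TPM in vehicle and 5.23 to 6.31 TPM under Aβ42. In this bulk RNA, fewer neurons and less RNA per neuron cannot be told apart.

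Vehicle organoids expressed the synaptotagmins and SNAREs most highly. SYT4 was highest at 779.8 ± 105.8 TPM (mean ± SD, n = 3), rank 136 of the 18056 genes. SYT11 followed at 433.5 ± 14.1 TPM, then VAMP2 at 333.1 ± 10.7, SNAP25 at 330.6 ± 12.03, SYT1 at 283.8 ± 10.9 and RAB3A at 243.7 ± 5.13 TPM. VAMP2 and SNAP25 differed by less than the spread between libraries, whereas the steps above and below that pair exceeded the SDs. At the low end stood SYT2 (0.48 ± 0.061 TPM), CADPS2 (1.11 ± 0.60), RPH3A (1.35 ± 0.14), SNCG (2.93 ± 0.75), NRXN3 (3.64 ± 0.51), RIMS2 (3.69 ± 0.33) and SV2B (4.75 ± 0.61), and SV2C had 4 to 8 counts per library.

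**Figure D1:**
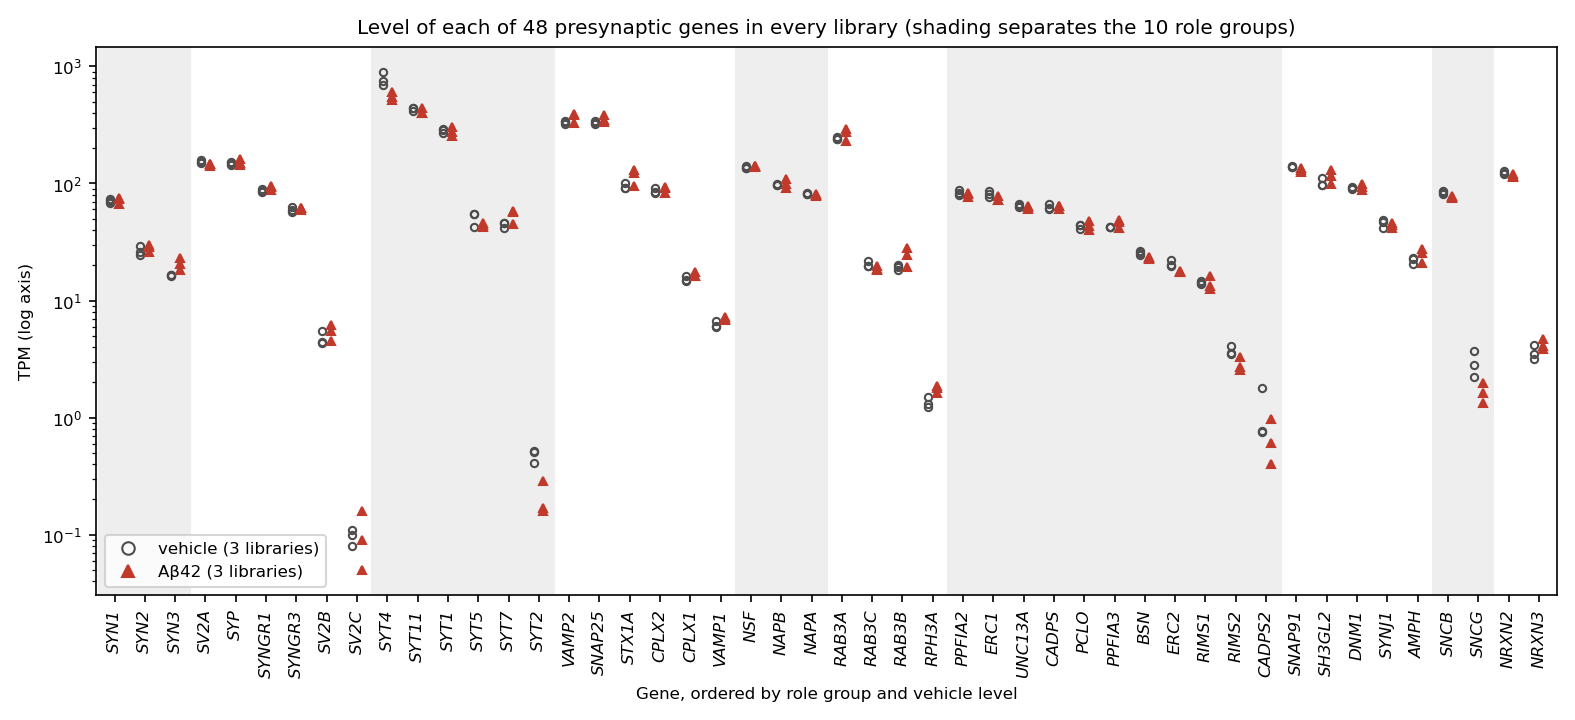
Level of each of the 48 genes in TPM on a log axis, with the 3 vehicle and 3 Aβ42 libraries as separate points. Genes are grouped by role, and SYT4 is the highest at 779.8 TPM on average in vehicle, while SV2C is the lowest.

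Within most families 1 paralog carried most of the transcript. As shares of family TPM in vehicle (mean ± SD, n = 3), VAMP2 made up 98.2% ± 0.090 of the VAMP pair, CADPS 98.3% ± 0.99 of the pair that primes dense-core vesicles, SV2A 96.9% ± 0.26 of the SV2 family and SNCB 96.6% ± 0.92 of the synuclein pair. RAB3A held 86.0% ± 0.21 of RAB3, CPLX2 85.0% ± 0.14 of the complexins, ERC1 79.7% ± 0.64 of the ERC pair and RIMS1 79.4% ± 0.93 of the RIM pair. The more even families were the SNAP adaptors (NAPA at 45.4% ± 0.49), the liprins (PPFIA2 at 66.5% ± 1.23) and the synapsins, with SYN1 at 62.3% ± 0.58, SYN2 at 23.3% ± 1.10 and SYN3 at 14.4% ± 0.53. Paralogs outside the 48 would change these shares. In the vehicle libraries RIMS4 read 64.84, 69.97 and 63.79 TPM and RIMS3 41.67, 42.99 and 40.96 TPM. RIMS1 read 13.85, 14.77 and 14.06 TPM. Also left out were RAB3D (24.68, 24.36 and 25.52 TPM) and NAPG (46.93, 44.74 and 47.74 TPM).

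Between vehicle and Aβ42, 0 of the 46 members passed in either direction, beside 0% of the 13842 genes, in edgeR's quasi-likelihood test without a block (Benjamini-Hochberg threshold 0.05). The smallest adjusted value among members was 0.0691. Counting unadjusted p-values below 0.05 gave 8 members higher (17.39%) and 4 lower (8.70%), against 12.4% and 11.5% of all tested genes. The groups did not overlap for 5 members higher (10.87%) and 6 lower (13.04%), against 13.6% and 13.4%. The shares at an unadjusted p-value below 0.05 and without overlap lay near the background and are not read as a result about the members. The median log2 fold change of the 46 was 0.059, with 30 above and 16 below 0. That of all genes was 0.0032, with 50.7% above 0. The difference in signs was not tested.

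Other settings passed some members. From here on, with and without the block refer to edgeR on all 6 libraries unless another fit is named. Deviations from the group means correlated at 0.181, 0.388 and 0.129 between libraries numbered 1, 2 and 3. Numbers 1 and 3 correlated about as highly with each other (0.154 and 0.177), so only number 2 stood out as a pair. The labels state no pairing, and the block was taken from these same data. With the replicate number as a block, 6 members passed as higher (13.04%, beside 7.12% of all genes) and 2 as lower (4.35%, beside 7.05%). The higher ones were SYN3, SYT7, RAB3B, STX1A, VAMP2 and SH3GL2, and the lower ones SYT4 and SYT2. Adding a correction for transcript length, chosen after the data were seen, left 6 and 1, without SYT2, beside 7.48% and 6.97%. DESeq2 passed 3 higher and 1 lower (beside 2.92% and 3.21%), edgeR without a filter on low counts 1 and 1 (1.09% and 0.984%), and limma-voom with sample quality weights 9 and 2 (9.04% and 9.33%).

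Aβ42 replicate 2 lay nearer to the vehicle mean than the mean of Aβ42 replicates 1 and 3 did in 31 of the 46 members (67.4%) and in 69.1% of all genes. The median member stood 0.059, -0.045 and 0.10 log2 units from the vehicle mean in Aβ42 replicates 1, 2 and 3. Without Aβ42 replicate 2, 12 members were higher (26.09%, beside 11.5%) and 3 lower (6.52%, beside 11.6%) with no block. Leaving out both libraries numbered 2, a setting chosen after the data were seen, gave 12 (26.09%) and 1 (2.17%), beside 8.19% and 8.5%.

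**Figure D2:**
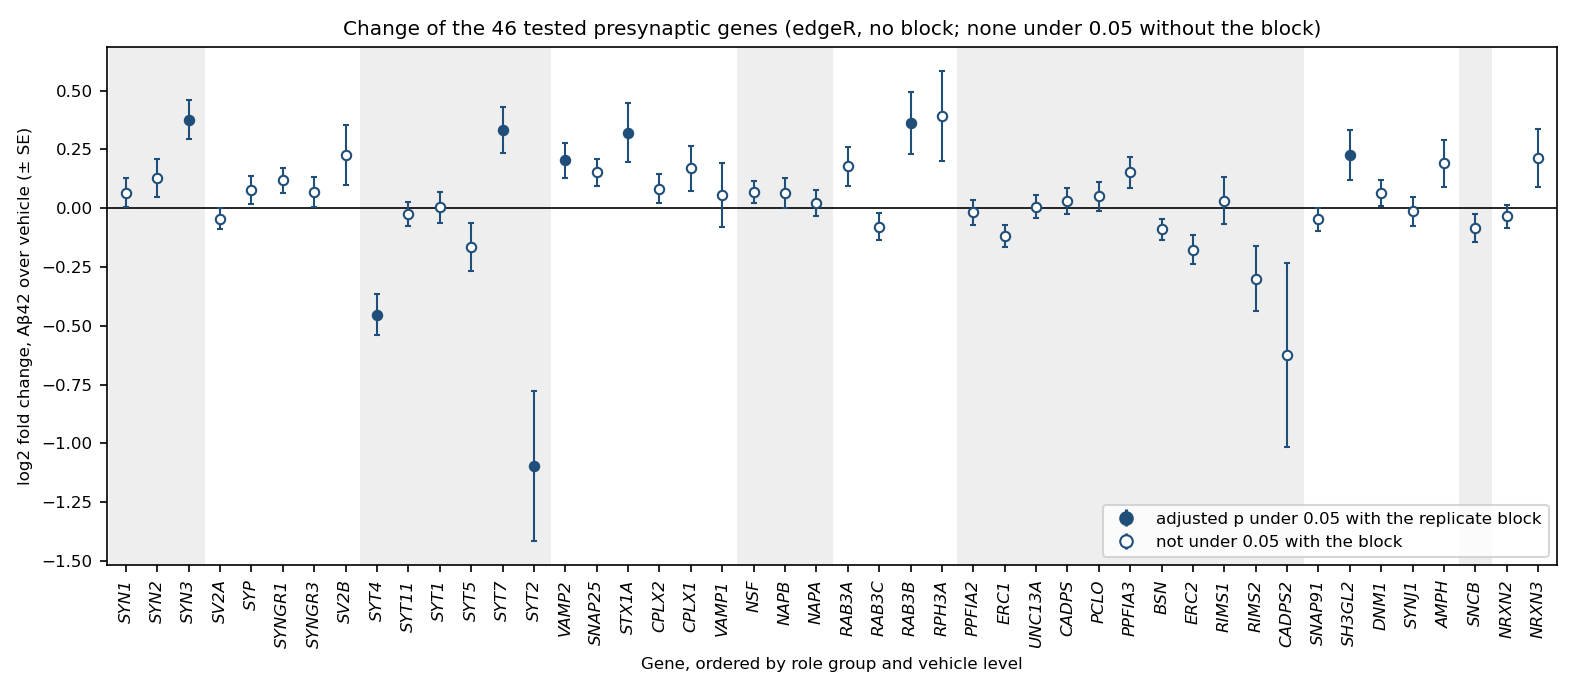
log2 fold change of Aβ42 over vehicle with its standard error for the 46 tested genes, from edgeR without a block, grouped by role. Filled points are the 8 genes that passed with the replicate block, of which SYT4 (-0.45) and SYT2 (-1.10) lie below 0 and the other 6 above.

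Among the synaptotagmins, SYT4 and SYT2 fell and SYT7 rose with the block, and edgeR without it passed none. Without a block, DESeq2 passed SYT4 (adjusted p-value 1.92e-05) and SYT7 (0.0178), limma-voom with quality weights passed the same pair (0.0128 and 0.00788), and edgeR with no count filter passed SYT4 (0.0471). SYT4 is a synaptotagmin of dense-core and other secretory vesicles whose first C2 domain does not respond to calcium in the usual way. Vehicle replicates 1 to 3 held 1044, 1323 and 1122 CPM of it (CPM scaled by TMM, edgeR's library normalisation), and Aβ42 replicates 1 to 3 786.7, 910.3 and 852.4 CPM. Every Aβ42 value lay below every vehicle value. The log2 fold change was -0.45 ± 0.088 (SE), a change of -26.9%, with edgeR adjusted p-values of 0.0691 without and 7.79e-05 with the block.

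SYT2, a fast calcium sensor best known from hindbrain and neuromuscular terminals, was barely detected. Its vehicle libraries gave 1.38, 1.46 and 1.04 CPM and its Aβ42 libraries 0.49, 0.53 and 0.78 CPM, without overlap. The log2 fold change of -1.10 ± 0.32 had edgeR adjusted p-values of 0.0947 without and 0.0433 with the block, and 0.0541 with the block and the length correction. It rests on 7.53 to 24.1 estimated counts per library, divided in all 6, and SYT2 exons overlap PPP1R12B on the opposite strand.

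SYT7, a slow, high-affinity sensor used in asynchronous release and facilitation, moved in the other direction. The vehicle values were 90.7, 81.5 and 89.3 CPM and the Aβ42 values 116.9, 91.7 and 120.7 CPM, with Aβ42 replicate 2 just above the highest vehicle library. The log2 fold change was 0.33 ± 0.099 (edgeR adjusted p-value 0.108 without and 0.00193 with the block). An exon of SYT7 overlaps the noncoding gene AP003559.1 on the same strand. SYT1, the main fast sensor of forebrain, overlapped between groups at 500.0 ± 25.4 and 501.6 ± 44.0 CPM (mean ± SD, n = 3), a log2 fold change of 0.0044 ± 0.066. SYT11, which like SYT4 is not a calcium sensor, gave 873.3 ± 21.7 and 857.9 ± 44.2 CPM (-0.026 ± 0.051). SYT5, a sensor on dense-core vesicles, had 36.3, 35.9 and 27.6 CPM with vehicle and 28.6, 31.1 and 29.5 CPM under Aβ42, with overlap (log2 fold change -0.17 ± 0.10, adjusted p-value 0.342).

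The make-up of the family was compared as each gene's share of the 6 synaptotagmins' TPM. SYT4 held 45.96%, 52.6% and 47.9% in vehicle replicates 1 to 3 and 39.1%, 43.2% and 41.3% under Aβ42, a difference of -7.64 percentage points. The SYT11 share was 27.8%, 25.7% and 28.3% against 30.4%, 31.9% and 30.1% (3.56 points) and the SYT7 share 3.06%, 2.45% and 2.91% against 4.34%, 3.26% and 4.38% (1.19 points). None of these 3 shares overlapped between groups. Each had an exact two-sided permutation p-value of 0.1 (n = 3 against 3), the smallest this design allows, and 0.256 after adjustment over 23 shares in 12 families. Shares of a family sum to a constant, and the CPM of SYT11 itself overlapped between groups.

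**Figure D3:**
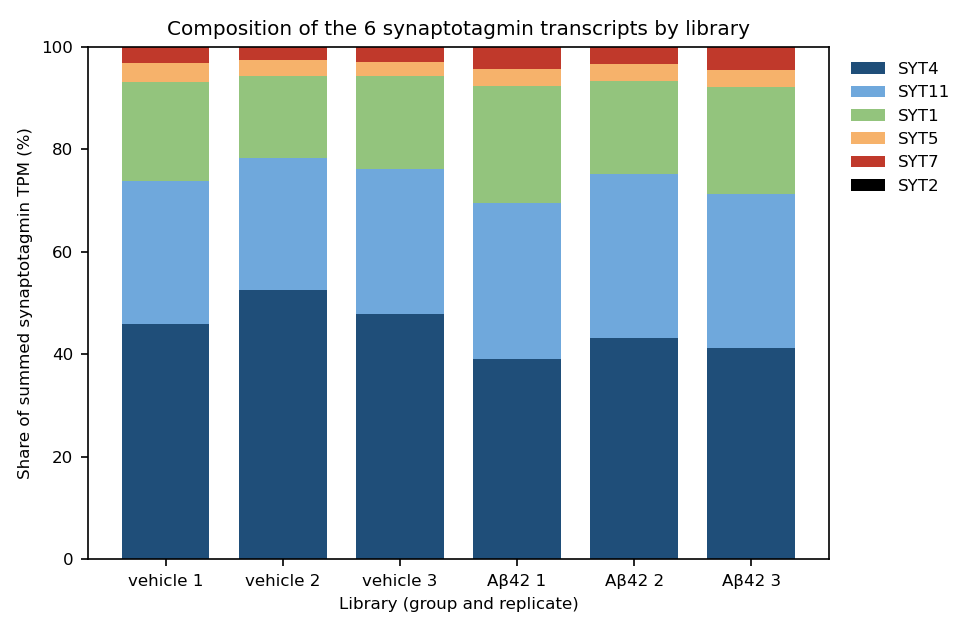
Share of the summed TPM of 6 synaptotagmins in each library, from 0 to 100%. SYT4 takes 45.96% to 52.6% in the 3 vehicle libraries and 39.1% to 43.2% in the 3 Aβ42 libraries, and SYT2 is too small to be seen.

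SNAREs and complexins had positive estimates in 6 of 6 genes (median log2 fold change 0.16), beside 50.7% of all genes. Of the 6, VAMP2 and STX1A rose with the block while edgeR without it passed none. Without a block, limma-voom with quality weights passed VAMP2 (adjusted p-value 0.0147), STX1A (0.0218) and SNAP25 (0.0429), and edgeR without Aβ42 replicate 2 passed the same 3 genes. VAMP2 is the main vesicle SNARE of forebrain. Vehicle libraries held 261.3, 238.9 and 255.2 CPM and Aβ42 libraries 300.0, 255.0 and 315.4 CPM, and only Aβ42 replicate 2 fell inside the vehicle range. The log2 fold change was 0.20 ± 0.075, with edgeR adjusted p-values of 0.146 without the block, 0.0181 with it, and 0.00214 without Aβ42 replicate 2. VAMP2 exons overlap the protein-coding gene AC129492.3 on the same strand, so stranded counting alone would not separate them.

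STX1A, syntaxin 1A of the plasma membrane, read 69.5, 61.7 and 62.6 CPM in the vehicle libraries and 84.8, 64.7 and 92.6 CPM under Aβ42, again with Aβ42 replicate 2 inside the vehicle range. This was a log2 fold change of 0.32 ± 0.13 (edgeR adjusted p-value 0.177 without the block, 0.0228 with it and 0.000624 without that library). STX1A exons overlap BUD23 on the opposite strand, and whether counting used strand is not given in the sources used here. SNAP25, which with syntaxin forms the target side of the fusion complex, read 236.7, 225.8 and 244.7 CPM against 280.4, 244.9 and 260.8 CPM. Its groups were separated by under 1 CPM, and the log2 fold change of 0.15 ± 0.057 gave edgeR adjusted p-values of 0.149 without the block, 0.0564 with it and 0.0155 without Aβ42 replicate 2.

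Complexins, which clamp and then promote fusion, did not pass with or without the block, although CPLX2 passed without both libraries numbered 2 (edgeR adjusted p-value 0.0405). CPLX1 averaged 11.3 ± 0.45 CPM in vehicle and 12.7 ± 0.56 CPM under Aβ42, without overlap (log2 fold change 0.17 ± 0.096), and CPLX2 156.7 ± 7.36 and 165.9 ± 12.6 CPM (0.083 ± 0.062). The second VAMP, VAMP1, averaged 6.40 ± 0.71 and 6.65 ± 0.34 CPM (0.055 ± 0.14, and -0.018 without vehicle replicate 3). NSF, the ATPase that pulls spent SNARE complexes apart, read 214.6, 202.8 and 205.9 CPM and 217.3, 212.0 and 224.4 CPM, with overlap (0.069 ± 0.046, edgeR adjusted p-value 0.384). Its adaptors NAPB and NAPA had log2 fold changes of 0.063 and 0.022, and NAPA was below 0 on the TPM scales.

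**Figure D4:**
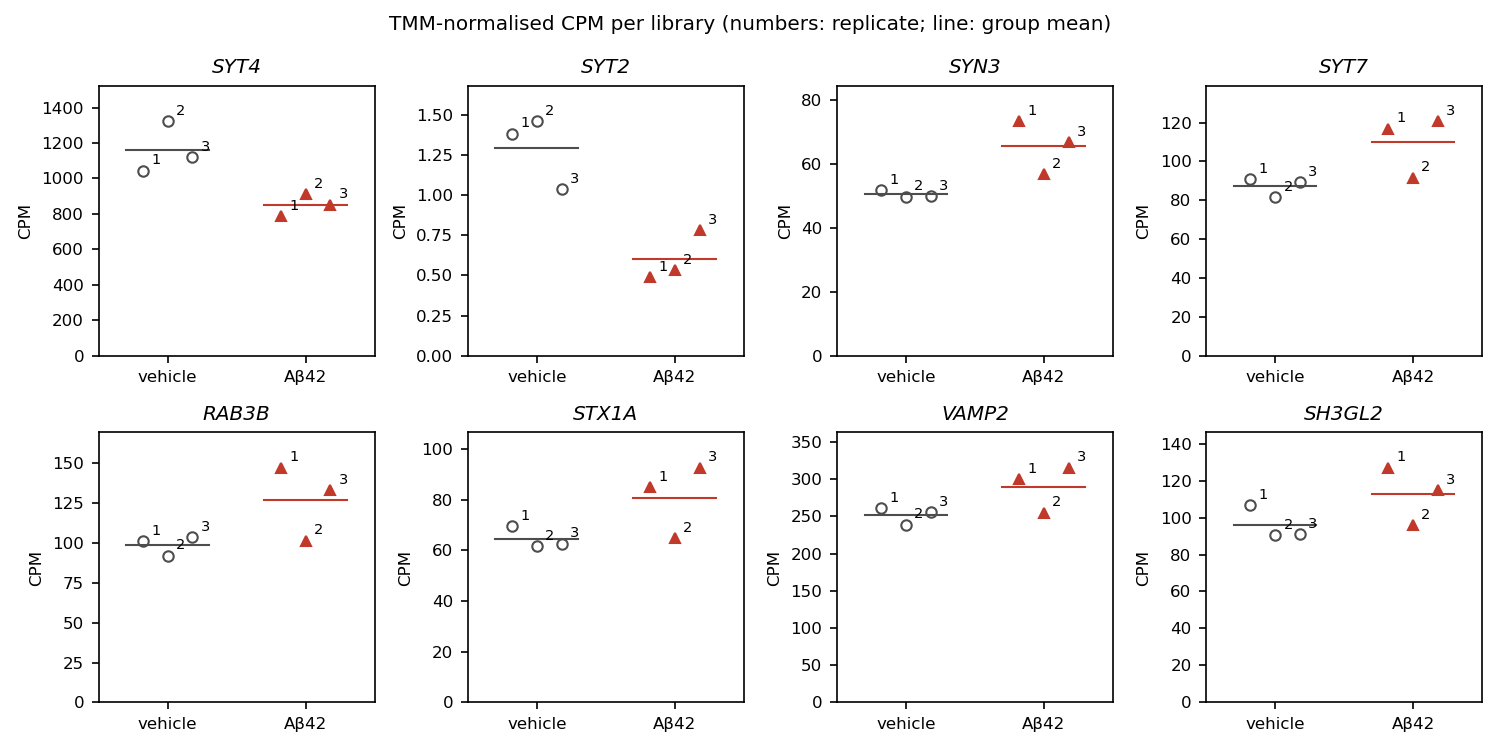
TMM-normalised CPM of the 8 genes that passed with the replicate block, by library, with axes from 0. In SYN3, SYT7, RAB3B, STX1A, VAMP2 and SH3GL2 the lowest Aβ42 library is replicate 2, while in SYT4 replicate 2 is the highest library of each group.

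Synapsins coat vesicles and hold them in the reserve pool, and SYN3, which appears early in neuronal development, rose with the block. Vehicle libraries held 51.9, 49.7 and 49.9 CPM of SYN3 and Aβ42 libraries 73.3, 56.8 and 66.7 CPM, every Aβ42 value lying above every vehicle value. The log2 fold change was 0.38 ± 0.085, a change of 29.8% (edgeR adjusted p-value 0.0734 without the block, 0.00191 with it and 0.000438 without Aβ42 replicate 2). The more abundant SYN1 read 85.3, 86.5 and 81.1 CPM against 89.5, 81.0 and 94.0 CPM, with overlap (log2 fold change 0.065 ± 0.062, adjusted p-value 0.54), and SYN2 averaged 38.1 ± 3.29 and 41.7 ± 3.11 CPM (0.13 ± 0.081, and an adjusted p-value of 0.0332 without both libraries numbered 2).

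The SYN3 share of synapsin TPM was 14.5%, 13.8% and 14.8% in vehicle and 18.1%, 16.3% and 16.49% under Aβ42, and the SYN1 share differed by -2.55 points. Both had an exact permutation p-value of 0.1, or 0.256 adjusted. Estimated counts of SYN3 were divided in 4 libraries. TIMP3, inside the SYN3 gene on the opposite strand, overlapped between groups at 32.96, 42.04 and 32.84 TPM in vehicle and 32.71, 41.95 and 30.84 TPM under Aβ42.

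RAB3 proteins are small GTPases that recruit vesicles to release sites, and RAB3B rose with the block. It read 101.1, 91.9 and 103.4 CPM in the vehicle libraries and 147.1, 101.4 and 132.9 CPM under Aβ42, replicate 2 lying inside the vehicle range. Its log2 fold change was 0.36 ± 0.13 (edgeR adjusted p-value 0.163 without and 0.0035 with the block), and its counts were divided in all 6 libraries. RAB3A, the most abundant of the family, read 117.8, 118.9 and 115.1 CPM against 137.5, 113.2 and 147.3 CPM, where Aβ42 replicate 2 was the lowest of all 6 (0.18 ± 0.084, adjusted p-value 0.232, 0.126 with the block and 0.00203 without that library). RAB3C averaged 72.0 ± 3.69 and 68.2 ± 2.94 CPM (-0.078 ± 0.058). Rabphilin, the RAB3 effector encoded by RPH3A, read 2.34, 2.61 and 2.13 CPM against 3.17, 2.85 and 3.30 CPM without overlap, but on 35 to 55 counts per library its log2 fold change of 0.39 ± 0.19 had an adjusted p-value of 0.241.

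Vesicle membrane proteins did not pass with or without the block, but SYNGR1 (0.0369) and SV2B (0.032) passed in edgeR without Aβ42 replicate 2. SV2A, a transporter-like glycoprotein that binds synaptotagmin, had the highest vehicle mean of them at 153.7 ± 5.13 TPM (mean ± SD, n = 3). SYP (synaptophysin) was close at 148.6 ± 5.01 TPM, and under Aβ42 SYP averaged 151.5 and SV2A 144.5 TPM. SV2A read 245.8, 258.9 and 248.5 CPM in the vehicle libraries and 243.5, 236.8 and 250.3 CPM under Aβ42, with overlap (log2 fold change -0.044 ± 0.046, edgeR adjusted p-value 0.579). SYNGR1, a synaptogyrin, read 140.7, 133.2 and 133.3 CPM against 147.4, 139.6 and 154.9 CPM, with Aβ42 replicate 2 just below vehicle replicate 1 (0.12 ± 0.052, adjusted p-value 0.201). SYP, SYNGR3 and SV2B had log2 fold changes of 0.077, 0.070 and 0.23.

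Active zone and priming genes were split, with 5 of 11 estimates above 0, beside 50.7% of all genes, and 6 below (median log2 fold change -0.017). On all 6 libraries edgeR passed none with or without the block. Without Aβ42 replicate 2 it passed RIMS2 (adjusted p-value 0.042), ERC1 (0.0308) and PPFIA3 (0.0105), and limma-voom with quality weights on all 6 passed ERC1 (0.0462) and PPFIA3 (0.0351). The ERC scaffolds, which tie RIM and Bassoon together, did not overlap between groups. ERC2 read 50.5, 54.1 and 48.7 CPM in the vehicle libraries and 44.5, 44.4 and 46.7 CPM under Aβ42 (log2 fold change -0.18 ± 0.062, edgeR adjusted p-value 0.128, 0.085 with the block), and ERC1 228.3, 236.6 and 232.4 CPM against 208.3, 222.8 and 211.2 CPM (-0.12 ± 0.046, adjusted p-value 0.157, 0.112 with the block). BSN, the giant scaffold Bassoon, was also without overlap at 160.0, 169.9 and 163.9 CPM against 157.6, 150.4 and 155.8 CPM, a change of -6.06% (-0.090 ± 0.046, adjusted p-value 0.26).

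Piccolo, the relative of Bassoon encoded by PCLO, averaged 310.4 ± 11.6 and 321.4 ± 27.7 CPM (0.050 ± 0.063). RIMS2, a RIM scaffold, read 11.1, 11.4 and 9.39 CPM against 7.25, 9.98 and 8.70 CPM and overlapped through Aβ42 replicate 2 (-0.30 ± 0.14, edgeR adjusted p-value 0.214), and RIMS1 averaged 32.7 ± 1.45 and 33.4 ± 5.05 CPM (0.031 ± 0.10). UNC13A, the priming factor that opens syntaxin, averaged 258.3 ± 6.92 and 259.4 ± 11.1 CPM (0.0063 ± 0.049).

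Liprins are adaptors of the active zone. PPFIA3 read 75.3, 73.4 and 75.3 CPM in the vehicle libraries and 84.1, 74.7 and 90.1 CPM under Aβ42 (log2 fold change 0.15 ± 0.067, edgeR adjusted p-value 0.2), and PPFIA2 164.1, 174.0 and 160.6 CPM against 165.6, 155.6 and 171.7 CPM (-0.017 ± 0.053, adjusted p-value 0.872). Both overlapped between groups, but the PPFIA2 share of this pair's TPM did not, at 66.4%, 67.7% and 65.3% in vehicle and 63.7%, 65.0% and 62.9% under Aβ42 (exact permutation p-value 0.1, 0.256 adjusted). CADPS, which primes dense-core vesicles, had a log2 fold change of 0.031. CADPS2 read 1.502, 3.40 and 1.59 CPM against 1.28, 2.02 and 0.90 CPM, so that the libraries numbered 2 were the highest of both groups (-0.62 ± 0.39, adjusted p-value 0.356, and -0.14 without vehicle replicate 2).

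Of the endocytic genes, SH3GL2 (endophilin A1, which bends membrane and recruits synaptojanin) rose with the block. It read 106.9, 90.6 and 90.9 CPM in the vehicle libraries and 126.9, 96.1 and 114.7 CPM under Aβ42, and overlapped because Aβ42 replicate 2 lay below vehicle replicate 1. For SH3GL2 the log2 fold change was 0.23 ± 0.11 (edgeR adjusted p-value 0.234 without and 0.0167 with the block). SNAP91, the clathrin adaptor AP180 and the highest of the group, read 218.1, 219.6 and 213.0 CPM against 216.8, 198.8 and 213.9 CPM (-0.048 ± 0.048, adjusted p-value 0.566). AMPH (amphiphysin), DNM1 (dynamin, which pinches the vesicle off) and SYNJ1 (the lipid phosphatase synaptojanin) had log2 fold changes of 0.19, 0.064 and -0.013. AMPH passed without Aβ42 replicate 2 (edgeR adjusted p-value 0.00925) and with quality weights in limma-voom (0.0429).

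Synucleins bind vesicle membrane. SNCB, β-synuclein, read 37.0, 37.9 and 37.4 CPM in the vehicle libraries and 35.2, 34.2 and 36.5 CPM under Aβ42, without overlap (log2 fold change -0.084 ± 0.061, edgeR adjusted p-value 0.414). SNCG had 11, 7 and 8 counts in vehicle and 4, 6 and 5 under Aβ42, too few for the test. The neurexins, presynaptic adhesion receptors, overlapped between groups, with NRXN2 at 243.2, 236.5 and 232.2 CPM against 237.2, 219.6 and 238.8 CPM (-0.033 ± 0.049, adjusted p-value 0.703) and NRXN3 averaging 11.9 ± 1.75 and 13.8 ± 1.24 CPM (0.21 ± 0.12).

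The promoters of all members that passed with the block and had a window are printed, 6 of the 8 (SYN3 and SYT7 had none). Each is a RefSeq window of 250 bases before to 50 after a gene start (GRCh38.p14), 5′ to 3′ on the gene's strand, and the first listed where a gene had 2 (SYT2 and VAMP2). Capitals mark matches on either strand to GGGCGG (the GC box bound by SP1), GCGGGGGCG (EGR1, whose matches can overlap a GC box), TGACGTCA (the cyclic AMP response element) or CACGTG (an E box). SYT4 lies at chr18:43277441-43277740, SYT2 at chr1:202710405-202710704, STX1A at chr7:73719620-73719919, VAMP2 at chr17:8162827-8163126 and RAB3B at chr1:51990651-51990950, all on the minus strand, and SH3GL2 at chr9:17578816-17579115 on the plus strand.
SYT4: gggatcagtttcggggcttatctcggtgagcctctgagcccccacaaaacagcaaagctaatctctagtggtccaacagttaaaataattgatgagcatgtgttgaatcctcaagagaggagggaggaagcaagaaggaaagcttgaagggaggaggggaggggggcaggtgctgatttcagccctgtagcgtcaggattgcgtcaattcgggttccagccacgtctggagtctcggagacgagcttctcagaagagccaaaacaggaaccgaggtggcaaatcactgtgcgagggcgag
SYT2: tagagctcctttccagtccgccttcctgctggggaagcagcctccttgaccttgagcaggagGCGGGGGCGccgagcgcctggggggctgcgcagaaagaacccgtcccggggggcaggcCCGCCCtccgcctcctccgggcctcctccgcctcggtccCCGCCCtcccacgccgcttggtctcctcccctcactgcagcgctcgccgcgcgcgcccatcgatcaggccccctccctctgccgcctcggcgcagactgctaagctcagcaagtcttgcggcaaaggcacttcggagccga
STX1A: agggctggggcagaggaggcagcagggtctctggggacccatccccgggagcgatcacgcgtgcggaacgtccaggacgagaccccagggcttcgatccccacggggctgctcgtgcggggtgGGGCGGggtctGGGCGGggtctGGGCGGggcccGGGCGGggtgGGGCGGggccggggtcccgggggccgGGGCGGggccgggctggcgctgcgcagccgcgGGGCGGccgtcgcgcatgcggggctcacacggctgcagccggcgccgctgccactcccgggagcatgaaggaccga
VAMP2: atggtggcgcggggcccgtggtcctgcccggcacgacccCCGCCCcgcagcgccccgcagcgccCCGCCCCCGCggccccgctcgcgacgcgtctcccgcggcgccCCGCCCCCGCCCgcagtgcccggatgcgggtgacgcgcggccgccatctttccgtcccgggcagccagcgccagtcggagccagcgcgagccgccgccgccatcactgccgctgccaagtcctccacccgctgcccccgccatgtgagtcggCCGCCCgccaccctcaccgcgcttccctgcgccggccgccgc
RAB3B: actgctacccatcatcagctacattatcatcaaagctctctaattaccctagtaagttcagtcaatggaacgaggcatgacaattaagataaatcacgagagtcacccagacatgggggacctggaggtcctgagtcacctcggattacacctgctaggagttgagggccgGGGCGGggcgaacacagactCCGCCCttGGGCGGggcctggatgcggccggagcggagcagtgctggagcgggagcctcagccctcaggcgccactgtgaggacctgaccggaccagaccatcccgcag
SH3GL2: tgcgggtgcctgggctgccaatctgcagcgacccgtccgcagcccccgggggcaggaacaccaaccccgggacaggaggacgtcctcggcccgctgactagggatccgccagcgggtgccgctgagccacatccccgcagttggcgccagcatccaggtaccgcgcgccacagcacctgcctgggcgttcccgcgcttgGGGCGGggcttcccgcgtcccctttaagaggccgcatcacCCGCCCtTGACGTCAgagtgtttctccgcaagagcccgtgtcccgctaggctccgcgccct

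Directions here are those of the members that passed with the block, and edgeR without it passed none. Of the members that fell with the block, the SYT4 window held none of the 4 motifs at 53.3% GC. The SYT2 window held 2 GC boxes and 1 EGR1 match at 71.7% GC. Of those that rose, STX1A held 7 GC boxes at 79.3% GC, VAMP2 held 5 GC boxes and 2 EGR1 matches at 81.7% GC, RAB3B held 3 GC boxes at 58.7% GC, and SH3GL2 held 2 GC boxes and 1 cyclic AMP response element at 71.0% GC. GC boxes and EGR1 matches thus occurred on both sides, and the median over all 35116 windows was 58.7% GC. Windows were found for 40 of the 48 members, 62 windows in all. The GC box was in 64.5% of member windows and 44.95% of all windows, EGR1 in 17.7% and 5.07%, the cyclic AMP response element in 3.2% (SH3GL2 and SYN1) and 1.85%, and the E box in 3.2% (NAPA and UNC13A) and 7.26%. These are matches of letters only, and windows of 1 gene can overlap. The letters of the GC box and of EGR1 are all G or C, and the GC content of the member windows as a set was not compared. All windows were counted whether or not their gene was tested, so these shares are not read as an enrichment.

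Other genes of the pathway came from a list of 77 presynaptic genes outside the 48. Of 75 tested, 0 passed without the block (edgeR). At an unadjusted p-value below 0.05, 9 of the 75 were higher and 3 lower, beside 12.4% and 11.5% of all genes. With the block 7 of the 75 rose and 3 fell, beside 7.12% and 7.05% of all genes. These counts are not read as a result about the list. Their median log2 fold change was 0.047. CPLX3, a complexin best known from retina, read 2.40, 3.16 and 2.68 CPM in the vehicle libraries and 4.81, 4.45 and 4.44 CPM under Aβ42, without overlap (log2 fold change 0.73 ± 0.18, edgeR adjusted p-value 0.0734, 0.0135 with the block). RAB3GAP2, a subunit of a complex that acts on RAB3, had a log2 fold change of 0.16 ± 0.042 (block 0.0353), and DOC2A, a calcium sensor for spontaneous release, 0.42 ± 0.11 (block 0.00787). On the lower side, STXBP5 (tomosyn, which competes for SNAREs) was at -0.19 ± 0.051 (block 0.0319), SLC17A6, a vesicular glutamate transporter, at -0.53 ± 0.17 (block 0.00216) and SYT16 at -0.16 ± 0.062 (block 0.0624).

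Cell type markers also moved, in directions that differed between lists. With the block, 7.12% of all genes rose and 7.05% fell, the background for every list below. Without it, 50.7% of the estimates of all genes lay above 0. Of 22 pan-neuronal markers 2 rose and 5 fell with the block and 0 passed without it (edgeR). At an unadjusted p-value below 0.05, 3 were higher and 7 lower, beside 12.4% and 11.5% of all genes. Their median log2 fold change was -0.0021, beside 0.0032 for all genes. Their summed level was 9997 to 10407 TPM in vehicle and 9489 to 9987 TPM under Aβ42. The TPM sums, here and below, are not TMM-scaled. On log2(TPM + 1) the median of all genes stood at -0.040 under Aβ42. TUBB3 read 384.8, 398.5 and 406.3 CPM against 346.2, 355.1 and 360.3 CPM (log2 fold change -0.16, block 0.0291), and MAP2 had a log2 fold change of -0.18 (block 0.0228). The list went both ways, with 10 estimates above and 12 below 0, and ENO2 (0.30, block 0.00111) and STMN4 (0.17, block 0.0283) were the 2 that rose. Of 10 intermediate progenitor markers 7 fell with the block, EOMES among them (-0.83, block 2.44e-06), and the list summed to 453.1 to 517.6 TPM in vehicle and 326.3 to 398.8 TPM under Aβ42. Of 15 proliferation markers 14 fell with the block, and that list summed to 670.1 to 809.7 TPM in vehicle and 422.1 to 612.9 TPM under Aβ42. Of 12 excitatory neuron markers 1 rose and 3 fell with the block (median log2 fold change -0.12). They summed to 2289 to 2380 TPM in vehicle and 2079 to 2215 TPM under Aβ42. Astrocyte markers had 8 of 10 estimates below 0 (median log2 fold change -0.54, 4 fell with the block) and choroid plexus markers 7 of 8 (-0.53, 4 fell), with sums of 503.4 to 589.1 TPM in vehicle and 433.0 to 503.8 TPM under Aβ42 and of 3362 to 7593 TPM in vehicle and 2842 to 6675 TPM under Aβ42. Of 8 inhibitory neuron markers tested, 6 estimates lay above 0 and 2 below (median log2 fold change 0.23), and 0 passed with the block. Radial glia markers had 8 of 13 estimates above 0 (median 0.070), and with the block 0 rose and 3 fell. The part of these shifts in the values of the members was not tested.

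Transcript length also ran with the fold changes. Over the 46 members the correlation of log2 fold change with log2 length was -0.12 (Pearson) and -0.18 (Spearman), and over all 13842 genes -0.11 and -0.16, across genes that share the same 6 libraries. The ratio of count to TPM stood for length.

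**Figure D5:**
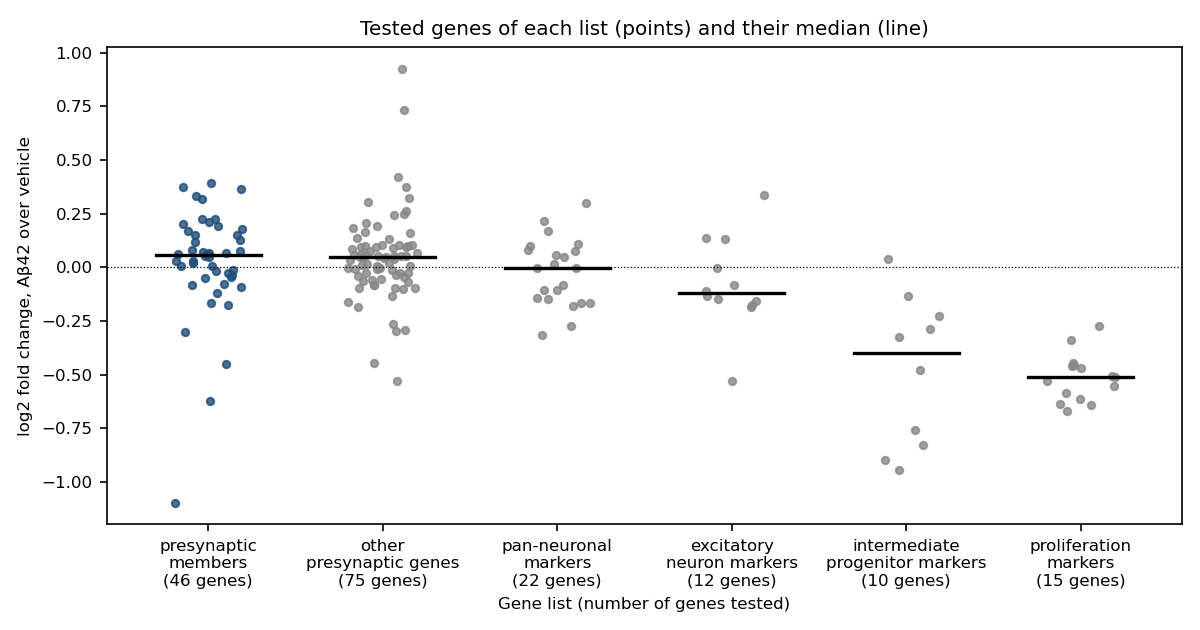
log2 fold change of every tested gene (points) and the median (line) for the 46 presynaptic members and the lists named on the axis. Members spread from -1.10 to 0.39 around a median of 0.059, while all 15 proliferation markers lie below 0.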

How the data were processed

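RNA-seq was measured in 6 organoid libraries. Per the file headers, each has a column of read counts and one of TPM. Only 86.9% to 87.5% of a library's deposited count values are whole (within 1e-06), so they were treated as estimated counts and rounded. The deposited TPM were scaled by the authors for length and library total. The submitters' processing notes name FastQC, STAR 2.7.11b, featureCounts 2.0.6 and GRCh38, in roles not given. Per the labels' protocols, polyadenylated RNA went into stranded libraries with PCR, and no molecular identifiers are mentioned, so floors cover counting error only.

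Genes were kept by filterByExpr, scaled by TMM and tested two-sided with edgeR 4.0.16 (quasi-likelihood, robust, no block, R 4.3.3), adjusted by Benjamini-Hochberg over 13842 genes at 0.05. The code was tested on simulated data. Alternatives used limma 3.58.1, DESeq2 1.42.0, other scalings and filters, log2 TPM, a length correction, the block, and each library left out. Paralog shares were compared by exact permutation.

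Deviations from group means correlated at 0.181, 0.388 and 0.129 between libraries numbered 1, 2 and 3 (12186 genes). The numbers were taken as pairs for the block, although only number 2 stood out as a pair. This pairing comes from the data, not the labels, and numbers 1 and 3 correlated about as highly with each other (0.154 and 0.177). No libraries agreed within sampling noise (chi-square per gene 3.16 to 21.2). The lowest value was between vehicle replicate 1 and Aβ42 replicate 2. Aβ42 replicate 2 gave 3.16, 7.71 and 4.58 with vehicle replicates 1 to 3, and 9.41 and 8.49 with Aβ42 replicates 1 and 3. It was thus closer to every vehicle library than to the other Aβ42 libraries. Exons of 17 members overlap another gene in GENCODE 29. All 48 members are named. Every library is given for the 8 smallest p-values in each direction and the highest gene of each role group, and for SH3GL2, RPH3A and SNCG, chosen after their values were seen. From the other presynaptic list the 3 smallest p-values in each direction are named. The members and lists were chosen with earlier results of these data known.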

Additional observations from a re-analysis of the deposited data

How the results depend on the processing

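Without a block, members passed in none of these: RLE and upper-quartile scaling, a minimum mean of 10 counts, limma-voom, both TPM scales, the length correction, and leaving out any library other than Aβ42 replicate 2. Members passing numbered 2 with no count filter, 4 in DESeq2, 11 with quality weights, 8 with the replicate block, 7 once length was also corrected, and 0 to 15 with libraries left out (15 without Aβ42 replicate 2, 13 without both libraries numbered 2). All genes passing numbered 360, 796, 2543, 1962, 2000 and 0 to 3224. Members with an unadjusted p-value below 0.05 numbered 20 with quality weights (43.48%, beside 34.7% of all genes) and 5 to 25 with libraries left out, against 12. They were 25 without Aβ42 replicate 2 (54.35%, beside 37%), 5 without Aβ42 replicate 1 (10.87%, beside 15.1%), 6 without Aβ42 replicate 3 (13.04%, beside 13.4%) and 6 without vehicle replicate 2 (13.04%, beside 13.7%). Without both libraries numbered 2 they were 22 (47.83%, beside 31.5%). By direction, the higher side was 41.3% (beside 18.5%) without Aβ42 replicate 2 and 39.13% (beside 15.8%) without both libraries numbered 2. With quality weights it was 32.61% (beside 17.5%). The lower side in these 3 settings was 13.04% (beside 18.5%), 8.7% (beside 15.7%) and 10.87% (beside 17.2%). The higher side was 4.35% (beside 7.67%) without Aβ42 replicate 1, and the lower side 10.87% (beside 8.54%) without vehicle replicate 3. Members without overlap numbered 12 to 34 with libraries left out, against 11. They were 34 without both libraries numbered 2, 32 without Aβ42 replicate 2 and 18 without vehicle replicate 1 (beside 59.6%, 53.5% and 41.3%). The member median stayed between 0.021 and 0.10. The cause was not tested.

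SYN3 and SYT4 passed in 7 of 19 alternatives, SYT7 and RAB3B in 6, VAMP2 and STX1A in 5, SH3GL2 in 4, RAB3A, PPFIA3 and AMPH in 3, SNAP25, SV2B and ERC1 in 2, and SYT2, SYN2, SYNGR1, CPLX2 and RIMS2 in 1. The replicate block changed no other member's call. Of all alternatives, 39 estimates in 11 members changed sign. With pseudocounts of 1 and 0.1 on the TPM scale, where the median gene moved to -0.040 and -0.043, SYT1 was at -0.040 and -0.040, NAPA -0.029 and -0.030, RIMS1 -0.028 and -0.031, UNC13A -0.036 and -0.036, and CADPS -0.0083 and -0.0084. SYNJ1 was at 0.0018 under upper-quartile scaling, 0.010 with quality weights, 0.023 with the length correction and 0.023 with the block added. PPFIA2 was at 0.017 with quality weights and 0.00031 with the length correction, and NAPA at -0.012 with the length correction and -0.012 with the block added. With libraries left out the range was -0.054 to 0.070 for SYT1, -0.067 to 0.072 for SYNJ1, -0.049 to 0.055 for PPFIA2, -0.024 to 0.059 for UNC13A, -0.097 to 0.15 for RIMS1, -0.0047 to 0.076 for CADPS, -0.018 to 0.14 for VAMP1, -0.070 to 0.0023 for SYT11, -0.012 to 0.12 for PCLO and -0.055 to 0.0042 for NRXN2. Cause not tested. SYT2, CADPS2 and RPH3A rest on few counts, which limits their precision.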
